A study of Arabidopsis thaliana with 103 samples.

Results

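The MORC genes of Arabidopsis thaliana are described here through 6 members, MORC1 (AT4G36290), MORC2 (AT4G36280), MORC4 (AT5G50780), MORC5 (AT5G13130), MORC6 (AT1G19100) and MORC7 (AT4G24970), which were picked by gene identifier from 33602 genes in the expression tables. They are the genes disrupted together in the morchex mutant, and MORC3 (AT4G36270), which morchex leaves without an insertion, is given only as the neighbour of MORC2. The study asked how the MOM1 complex, a group of silencing proteins, is tied to MORC6 and to RNA-directed DNA methylation. Transcripts were counted in 42 RNA-seq libraries of whole seedlings aged 12 days, in 14 groups of 3 replicates, and 18 lists of ChIP-seq peaks came from unopened flower buds.

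The mutant groups were morchex (morc1-2, morc2-1, morc4-1, morc5-1, morc6-3 and morc7-1 combined), morc6-3, aipp3-1, aipp3-2, mom2-1, mom2-2, phd1-2, phd1-4, pial1-2, pial2-1, the pial1/2 double mutant and nrpe1-11. All alleles are T-DNA insertions except phd1-2 and phd1-4, which are frameshifts made with CRISPR/Cas9, and all lines share the Col-0 ecotype of the wild type. The nrpe1-11 libraries have their own Col-0 set, and the other 11 mutants share 3 Col-0 libraries. The ChIP lists cover MORC6 with a Myc tag in morc6, Col-0, pial1/2 and a further line, and tagged PIAL2, AIPP3, PHD1 and PHD3. Each list from morc6, Col-0 or pial1/2 comes from a separate transgenic line, so differences between these backgrounds also hold differences between lines. PIAL2-Myc was in pial2-1, and the study placed its tagged genes in the matching mutants or in backgrounds it names. The labels of the further line name only the protein. The study's text describes Myc-tagged MORC6 in morc6-3, so this line may have that background too, but it is kept apart here. The tagged proteins were expressed from transformed genomic fragments under their own promoters, so a tagged gene is present in extra copies.

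MORC proteins are ATPases of the GHKL type (named for gyrase, Hsp90, histidine kinases and MutL) that bind DNA, form dimers and compact chromatin. In Arabidopsis MORC6 silences transposons and methylated genes, partly together with RNA-directed DNA methylation, in which RNA polymerase V and small RNAs bring the methyltransferase DRM2 to its targets. MORC1 and MORC2 are close relatives that each pair with MORC6, and they were first known from resistance to pathogens, whereas MORC4 and MORC7 resemble each other.

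Relatedness bears on what the counts can say. MORC3, MORC2 and MORC1 lie head to tail on the minus strand of chromosome 4 (TAIR10.1), with annotated gaps of 11 bp between MORC3 and MORC2 and 9 bp between MORC2 and MORC1. MORC1 (chr4:17169385-17173361) and MORC2 (chr4:17165253-17169375) have 18 exons each and share 86.8% of 1872 aligned coding bases. The other close pair, MORC4 (chr5:20650086-20655401, 20 exons) and MORC7 (chr4:12830915-12835949, 19 exons), shares 77.3% of aligned coding bases, and the remaining pairs of members share between 57.6% and 65.4%. MORC5 (chr5:4166609-4170643, 17 exons) and MORC6 (chr1:6594883-6601355, 20 exons) belong to neither pair. The longest run common to the MORC1 and MORC2 coding sequences, 74 bases, is printed. A read that falls inside it does not by itself tell these genes apart. Both stretches are on the coding strand, with the shared run in capitals, and cover coding bases 800 to 913 of MORC1 and 776 to 889 of MORC2.
MORC1: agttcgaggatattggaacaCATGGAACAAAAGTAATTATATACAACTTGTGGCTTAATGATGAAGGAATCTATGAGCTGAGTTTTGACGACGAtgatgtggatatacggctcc
MORC2: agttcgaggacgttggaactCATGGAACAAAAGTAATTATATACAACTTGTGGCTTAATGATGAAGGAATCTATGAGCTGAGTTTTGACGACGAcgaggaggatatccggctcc
RSEM, the program that gave the counts, splits reads common to several genes by an estimate. The estimated count was not whole (beyond 0.005) in 11 of 42 libraries for MORC2, 10 for MORC3 and 1 for MORC1. In those 10 libraries MORC2 and MORC3, which share 86.5% of aligned coding bases and a run of 61 bases, were not whole together. Col-0 replicate 1 was the library for MORC1, where MORC1 (309.86) and MORC2 (42.14) were not whole and MORC3 was. The counts of MORC4, MORC5, MORC6 and MORC7 were whole in all 42 libraries.

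The 3 intergenic stretches that follow carry the peaks described at the end and are printed from the TAIR10.1 plus strand. The first, chr1:6593311-6593510 between RKF2 (AT1G19090) and MORC6, holds the summits of both PIAL2-Myc replicates, with the 16 bases from one summit to the other in capitals. The next, chr5:4165725-4165946 upstream of MORC5, has in capitals the 143 bases that hold the summits of all 10 MORC6-Myc lists. The last, chr4:12836772-12836993 beyond the end of MORC7, has in capitals the 144 bases that hold 7 summits.
Upstream of MORC6: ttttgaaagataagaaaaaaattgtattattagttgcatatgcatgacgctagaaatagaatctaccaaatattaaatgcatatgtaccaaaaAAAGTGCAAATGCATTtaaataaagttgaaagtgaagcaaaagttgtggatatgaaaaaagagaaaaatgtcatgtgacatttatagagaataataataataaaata
Upstream of MORC5: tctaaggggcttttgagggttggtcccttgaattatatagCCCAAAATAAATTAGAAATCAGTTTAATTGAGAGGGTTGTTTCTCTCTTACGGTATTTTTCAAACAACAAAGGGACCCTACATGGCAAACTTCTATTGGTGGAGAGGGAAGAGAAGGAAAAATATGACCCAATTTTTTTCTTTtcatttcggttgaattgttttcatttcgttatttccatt
Downstream of MORC7: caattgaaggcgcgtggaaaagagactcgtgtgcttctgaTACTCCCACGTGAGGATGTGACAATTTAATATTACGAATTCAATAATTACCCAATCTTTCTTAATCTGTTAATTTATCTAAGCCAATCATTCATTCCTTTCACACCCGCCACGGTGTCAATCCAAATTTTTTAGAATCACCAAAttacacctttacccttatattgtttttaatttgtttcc
A and T made up 76.0% of the MORC6 stretch, 64.9% of the MORC5 stretch and 64.4% of the MORC7 stretch, against 63.8% to 64.0% of the chromosomes they lie on. The chromosome values also cover genes, and no share was taken for intergenic sequence alone.

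Libraries held 13164594 to 33464598 counted fragments. A gene counts as called here if it differed at least 2-fold (1 on the log2 scale, up or down) and its p from edgeR's quasi-likelihood test stayed under 0.05 after Benjamini-Hochberg adjustment across all genes and transposable elements tested. The labels do not say whether replicates were separate cultures, so the p-values measure the spread between these libraries, which may be technical. Leaf genes were high throughout (RBCS1A, a Rubisco subunit, at 8801 to 18224 TPM) and the root gene PYK10 was at 1043 to 1918 TPM. Between 2.88% and 4.2% of features were called in morchex, morc6-3, aipp3-1, aipp3-2, mom2-2, phd1-2 and phd1-4 against the same Col-0 libraries, but at most 0.484% in mom2-1, pial1-2, pial2-1 and pial1/2. Without Col-0 replicate 2 aipp3-1 crossed this divide, with 0.376% of features called, and without Col-0 replicate 3 it had 0.686%. The 2 alleles of MOM2 fell on opposite sides of this divide, and 3.13% of features were called in mom2-2 against mom2-1. Whether genotype or another difference between these sets of libraries sets the divide cannot be told apart, so the main results are also given against other mutants in place of Col-0.

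In the 3 Col-0 libraries shared by 11 mutants MORC1 was the most abundant member and MORC5 counted only a few fragments. Levels between genes are given as deposited TPM, which corrects for transcript length. MORC1 averaged 7.56 ± 0.62 TPM, MORC4 5.93 ± 0.14, MORC6 5.20 ± 0.67, MORC7 3.25 ± 0.52, MORC2 1.11 ± 0.24 and MORC5 0.097 ± 0.086 TPM (SD, n = 3). Only MORC4 and MORC6 had overlapping ranges among neighbours in this order. In the Col-0 libraries of the nrpe1-11 set MORC6 came first, at 7.75 TPM, and overlapped with MORC1 at 7.21 TPM. The 6 members summed to 23.1 ± 1.04 TPM, of which MORC1 made up 32.6%, MORC4 25.7%, MORC6 22.5% and MORC7 14%. MORC5 counted 4, 9 and 1 fragments in the 3 Col-0 libraries and did not reach the minimum CPM (counts scaled to library size) of 1 in at least 2 of 6 libraries in any comparison, so 5 of the 6 members were tested throughout.

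**Figure D1:**
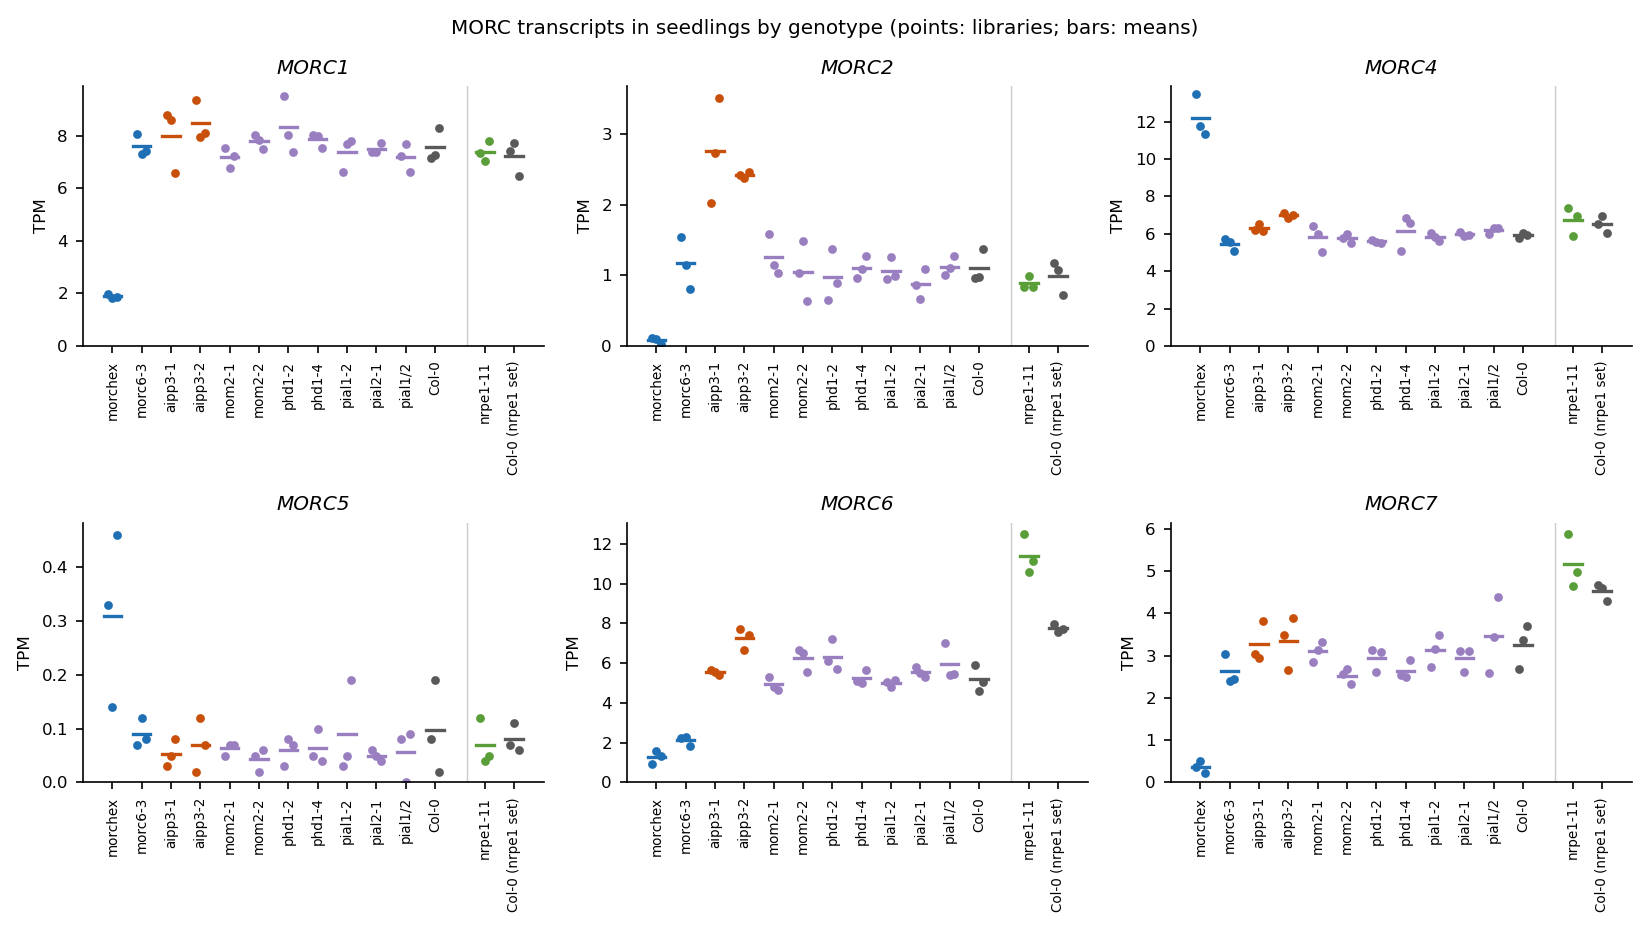
Level of each MORC gene in TPM (vertical axis, from 0) in the 42 seedling libraries (points) with group means (bars), mutants left of Col-0 and the nrpe1-11 set at the right. In morchex MORC4 stood at 11.36 to 13.49 TPM, above its 3 Col-0 libraries, whereas MORC1, MORC2, MORC6 and MORC7 stood below theirs.

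The morchex libraries first check the labels, because every member carries an insertion there. MORC1, MORC2, MORC6 and MORC7 fell and MORC4 rose, so 4 of 5 tested members were lower and 1 was higher than in Col-0, where 3.91% of all features tested were called. Gene counts do not show which part of a transcript was read, so they do not tell an intact message from a truncated one, and in whole seedlings fewer cells of a type and less RNA per cell cannot be told apart.

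MORC1, one of the partners of MORC6, had 1.99, 1.82 and 1.88 TPM in morchex, against 7.14, 7.27 and 8.28 TPM in Col-0. The groups did not overlap, and MORC1 fell by 1.93 ± 0.11 on the log2 scale (SE, edgeR adjusted p = 0.000123). MORC2, its neighbour, had 0.12, 0.10 and 0.03 TPM in morchex, against 0.96, 0.98 and 1.38 TPM in Col-0. All morchex libraries were below all Col-0 libraries, and MORC2 fell by 3.66 ± 0.42 on the log2 scale (edgeR adjusted p = 0.00226). Only 8 fragments lay behind the MORC2 value in morchex, against 145 in Col-0, which gave a CPM ratio of 0.074 (95% exact interval 0.0313 to 0.15, counting error only).

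MORC6 had 0.93, 1.56 and 1.35 TPM in morchex, against 5.93, 4.62 and 5.04 TPM in Col-0. It fell by 1.96 ± 0.19 on the log2 scale without overlap (edgeR adjusted p = 0.00115). MORC7 had 0.37, 0.50 and 0.23 TPM in morchex, against 2.68, 3.36 and 3.70 TPM in Col-0. It fell by 3.10 ± 0.26 on the log2 scale (edgeR adjusted p = 0.000737), again without overlap.

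MORC4, the closest relative of MORC7, went the other way. It had 13.49, 11.75 and 11.36 TPM in morchex, against 5.80, 6.07 and 5.92 TPM in Col-0. The lowest morchex library was well above the highest Col-0 library, and the log2 fold change was 1.104 ± 0.088 (SE, edgeR adjusted p = 0.000595). The rise was also measured against each of the 10 other groups of the set in a fit over 36 libraries, a comparison added after the data had been seen. It ranged between 0.94 and 1.20 on the log2 scale, with an adjusted p of at most 5.86e-10 in every one, and was below 1 only against aipp3-2 (0.94), phd1-4 (0.97) and pial1/2 (0.98).

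MORC5 had 0.33, 0.14 and 0.46 TPM in morchex, against 0.08, 0.19 and 0.02 TPM in Col-0. The ranges overlapped, and 38 fragments in morchex against 14 in Col-0 gave a CPM ratio of 3.64 (95% exact interval 1.93 to 7.27, counting error only). Against the 11 fragments of morc6-3 the ratio was 3.56 (1.78 to 7.72). No other group of the 14 went above 0.19 TPM in any library.

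MORC3, which carries no insertion in morchex, had 0.71, 1.00 and 0.94 TPM there, against 1.25, 1.3 and 1.44 TPM in Col-0. Its log2 fold change was -0.53 ± 0.20 and did not pass (edgeR adjusted p = 0.109).

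The make-up of the family's transcripts in morchex was unlike that in Col-0. The 6 members summed to 16.1 ± 0.99 TPM in morchex and 23.1 ± 1.04 TPM in Col-0 (SD, n = 3 each). MORC4 made up 75.5 ± 2.41% of that sum in morchex, against 25.7 ± 1.33% in Col-0. The order in morchex was MORC4 at 12.2 TPM, MORC1 at 1.90, MORC6 at 1.28, MORC7 at 0.367, MORC5 at 0.31 and MORC2 at 0.083 TPM, and only MORC7 and MORC5 overlapped among neighbours.

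**Figure D2:**
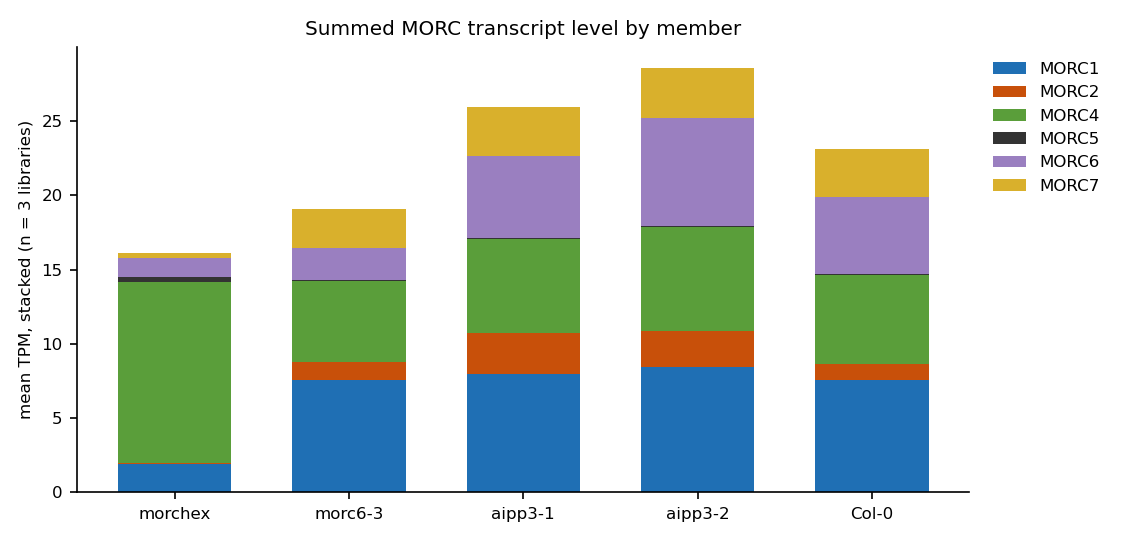
Mean TPM of the 6 MORC genes stacked by genotype (bar height is the sum of the 6 means, n = 3 libraries per group, axis from 0), mutants left of Col-0. The morchex bar sums to 16.1 TPM and is mostly MORC4, whereas the Col-0 bar sums to 23.1 TPM and is spread over 5 members.

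The single mutant morc6-3 carries the MORC6 allele that morchex also has. MORC6 was the only member called there, 1 of 5 tested, where 3.35% of all features were called. It had 2.23, 2.27 and 1.84 TPM in morc6-3, against 5.93, 4.62 and 5.04 TPM in Col-0, and fell by 1.27 ± 0.13 on the log2 scale (SE, edgeR adjusted p = 0.000851). The other 4 tested members had log2 fold changes between -0.28 for MORC7 and 0.10 for MORC2, with adjusted p of at least 0.301. MORC4 had 5.75, 5.56 and 5.07 TPM in morc6-3, with a log2 fold change of -0.10 ± 0.09 (edgeR adjusted p = 0.507).

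Setting morchex against morc6-3 leaves 5 insertions as the difference in genotype, within libraries that stand on the same side of the divide. Of 5 members tested, MORC4 was higher and MORC1 and MORC7 were lower, where 0.0352% of features (7 of 19882) were called, so 3 of the 7 calls were members. The log2 fold change was 1.19 ± 0.10 for MORC4 (edgeR adjusted p = 0.0078), -1.97 ± 0.11 for MORC1 (0.000777) and -2.82 ± 0.27 for MORC7 (0.0146). MORC2 was at -3.76 ± 0.48 with an adjusted p of 0.0854 and was not called. Replicates of the same number deviated together in these groups, and with the replicate number as a block MORC2 had an adjusted p of 0.00372 and 4 members were called, among 39 features. MORC6, whose allele is the same in both, had a log2 fold change of -0.69 ± 0.21 (edgeR adjusted p = 1.0, unadjusted p = 0.00999). The MORC4 call was lost without morc6-3 replicate 2 (adjusted p = 0.119) or replicate 3 (0.0933), at log2 fold changes of 1.19 and 1.16. The MORC7 call was lost without morc6-3 replicate 1, 2 or 3, or without morchex replicate 1, at adjusted p between 0.102 and 0.138. Only 2 features were called without morc6-3 replicate 2 or replicate 3.

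**Figure D3:**
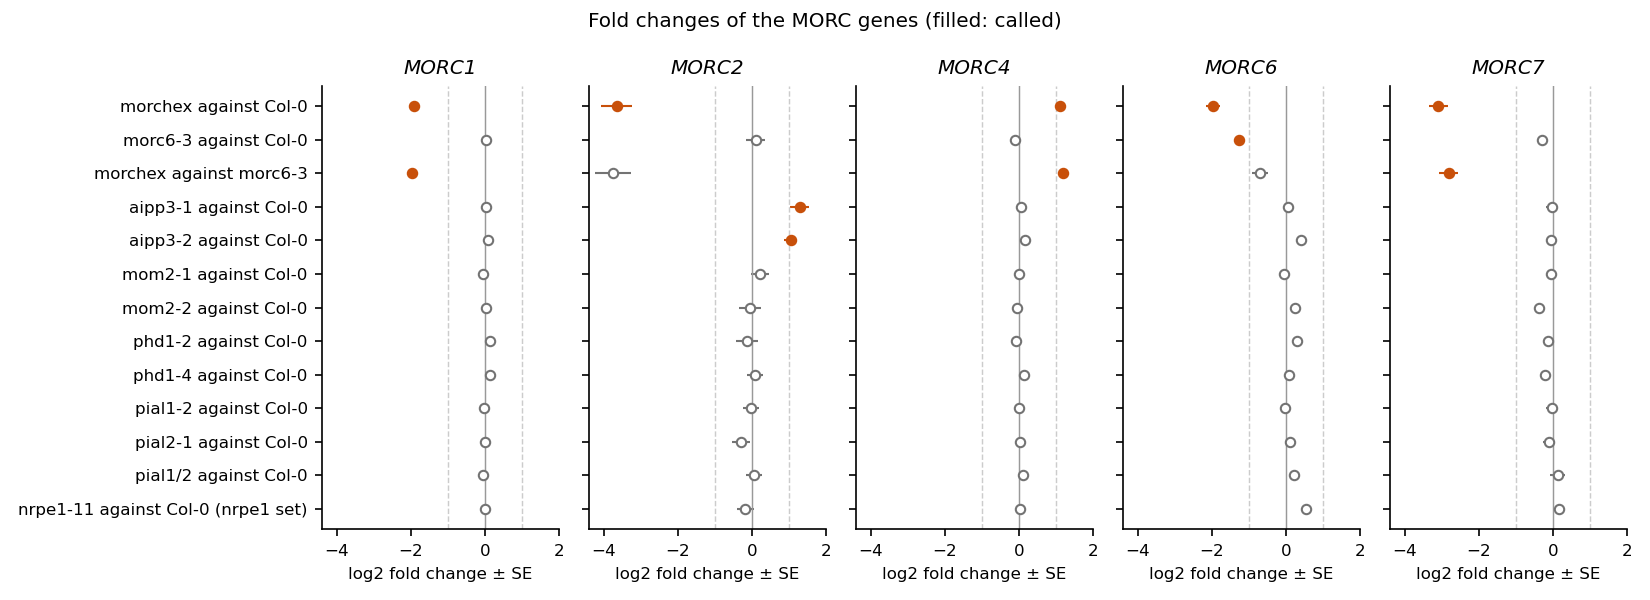
Log2 fold change of the 5 tested MORC genes (horizontal axis, points with SE bars) in each comparison (rows), with filled points where the gene was called. Filled points for MORC1, MORC4 and MORC7 lie only in the morchex rows, and those for MORC2 lie in the rows of morchex and of both aipp3 alleles against Col-0.

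In the 9 mutants of MOM1 complex genes, whose MORC genes carry no insertion, MORC2 was the only member called. It rose in both alleles of AIPP3, a component that binds a repressive methyl mark on histones. These comparisons share the 3 Col-0 libraries. In aipp3-1, where 2.88% of features were called, 1 of 5 members was called. MORC2 had 2.03, 2.74 and 3.51 TPM in aipp3-1, against 0.96, 0.98 and 1.38 TPM in Col-0, a log2 fold change of 1.297 ± 0.262 (SE, edgeR adjusted p = 0.0238). In aipp3-2, where 4.2% of features were called, 1 of 5 members was called. MORC2 had 2.42, 2.38 and 2.47 TPM in aipp3-2, a log2 fold change of 1.06 ± 0.18 over Col-0 (edgeR adjusted p = 0.00725). Neither allele's range touched that of Col-0, and between the alleles MORC2 differed by -0.23 ± 0.22 on the log2 scale in aipp3-2 against aipp3-1 (edgeR adjusted p = 1).

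The MORC2 call was lost in some fits that left out a single library. In aipp3-1 it was lost without aipp3-1 replicate 2 (adjusted p = 0.0767) and without Col-0 replicate 1 (0.0608), replicate 2 (0.0961) or replicate 3 (0.0671), at log2 fold changes of 1.20 to 1.48. The features called in aipp3-1 numbered 577 with all libraries, 75 without Col-0 replicate 2, 137 without Col-0 replicate 3 and 250 without aipp3-1 replicate 2. In aipp3-2 the fold change dropped just below the minimum without Col-0 replicate 1 (0.965) or replicate 2 (0.989), while the adjusted p stayed at 0.0171 and 0.0333. When the counts of MORC1, MORC2 and MORC3 were summed, a setting added after the data had been seen, the array was at 0.30 ± 0.10 in aipp3-1 (edgeR adjusted p = 0.0893) and 0.27 ± 0.09 in aipp3-2 (0.0658) and was not called.

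With other mutants in place of Col-0 in the fit over 36 libraries, also added after the data had been seen, MORC2 in aipp3-1 was called against all 8 groups, at log2 fold changes between 1.06 over mom2-1 and 1.57 over pial2-1. In aipp3-2 it was called against 4 of 8 groups. The values ranged between 0.83 over mom2-1 and 1.33 over pial2-1, and they were also below 1 over morc6-3 (0.96), phd1-4 (0.97) and pial1/2 (0.98). Over morc6-3 the adjusted p missed its threshold too (edgeR adjusted p = 0.0533).

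Transcripts of floral regulators were also higher in the same libraries. AP3, PI, SEP3 and AG, transcription factors that specify floral organs, summed to 38.0 to 59.2 TPM in aipp3-1 and 34.9 to 59.9 TPM in aipp3-2, against 7.4 to 8.5 TPM in Col-0. All 4 were called higher in aipp3-1, and AP3, SEP3 and AG were called higher in aipp3-2, with log2 fold changes of 2.72 ± 0.28 in aipp3-1 and 2.75 ± 0.22 in aipp3-2 for SEP3. The sums were also above Col-0 in all libraries of pial1-2 (18.4 to 23.5 TPM), pial1/2 (14.8 to 17.5 TPM) and pial2-1 (8.67 to 23.05 TPM). MORC2 was at 0.95 to 1.26 TPM in pial1-2, 1.00 to 1.27 TPM in pial1/2 and 0.67 to 1.09 TPM in pial2-1. The part of floral tissue in the MORC2 result was not tested.

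**Figure D4:**
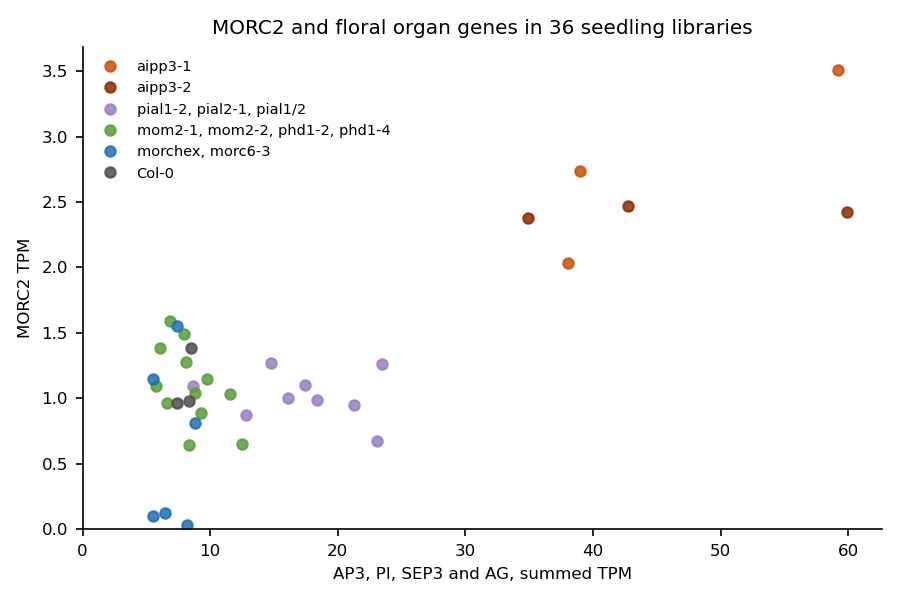
MORC2 level in TPM (vertical axis) against the summed TPM of AP3, PI, SEP3 and AG (horizontal axis) in the 36 seedling libraries that share 1 Col-0 set, 1 point per library. The 6 aipp3 libraries sit at the upper right, at 2.03 to 3.51 TPM of MORC2, and the pial1-2 and pial1/2 libraries have floral sums of 14.8 to 23.5 TPM with MORC2 at 0.95 to 1.27 TPM.

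MORC6 in aipp3-2 had 7.69, 6.66 and 7.40 TPM, against 5.93, 4.62 and 5.04 TPM in Col-0. The groups did not overlap, yet the log2 fold change of 0.40 ± 0.11 (edgeR adjusted p = 0.0351) was below the minimum fold and so it was not called. In aipp3-1 MORC6 was at 0.06 ± 0.11, and the alleles differed by 0.35 ± 0.08 (adjusted p = 0.635).

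In the other mutants of the complex none of the 5 tested members was called, which covers mom2-1 (0.0355% of features called), mom2-2 (3.38%), phd1-2 (3.1%), phd1-4 (3.71%), pial1-2 (0.106%), pial2-1 (0.147%) and pial1/2 (0.484%), by edgeR or by DESeq2. At an unadjusted p under 0.05 there was 1 member in mom2-2 (MORC7, -0.37 ± 0.15) and 1 in phd1-2 (MORC6, 0.30 ± 0.13), each of 5 tested, against 29.9% of all features in mom2-2 and 30.6% in phd1-2. With the aipp3 alleles included, 43 of 45 tested values were not called, and their log2 fold changes lay between -0.37 and 0.40. No member was called between alleles either, in aipp3-2 against aipp3-1 (0.114% of features called), mom2-2 against mom2-1 (3.13%) or phd1-4 against phd1-2 (0%), by edgeR or DESeq2. At an unadjusted p under 0.05 there were 1 member in the AIPP3 pair, 2 in the MOM2 pair and 0 in the PHD1 pair, each of 5 tested. Over all features the shares were 2.37% in the AIPP3 pair, 28.0% in the MOM2 pair and 3.23% in the PHD1 pair. Over all features the PHD1 pair had 0 calls by edgeR, 637 features at an unadjusted p under 0.05 and 7 calls by DESeq2.

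The nrpe1-11 mutant carries an insertion in the gene for the largest subunit of RNA polymerase V, and it was compared with its own Col-0 set, where 0.478% of features were called. None of the 5 tested members was called by edgeR or by DESeq2, and 1 had an unadjusted p under 0.05, against 2.89% of all features. This was MORC6, with 12.49, 10.56 and 11.15 TPM in nrpe1-11, against 7.97, 7.58 and 7.70 TPM in Col-0. All nrpe1-11 libraries were above all Col-0 libraries, at a log2 fold change of 0.54 ± 0.08 (SE, edgeR adjusted p = 0.0584). By DESeq2 the adjusted p was 0.000231 at a log2 fold change of 0.54, which is below the minimum fold. MORC7 had 5.87, 4.64 and 4.99 TPM in nrpe1-11, against 4.68, 4.60 and 4.30 TPM in Col-0, and overlapped (log2 fold change 0.17 ± 0.11, edgeR adjusted p = 1). MORC6 was the most abundant member in nrpe1-11, at 11.4 ± 0.99 TPM, followed by MORC1 at 7.39 ± 0.40 and MORC4 at 6.75 ± 0.77 TPM (SD, n = 3), the last 2 overlapping.

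Among 22 other genes of the MOM1 complex and of RNA-directed DNA methylation, none was called in morchex or morc6-3 by edgeR or DESeq2. In each of these mutants 5 of the 22 (22.7%) had an unadjusted p under 0.05, against 32.2% of all features tested in morchex and 28.1% in morc6-3. Over all 16 comparisons 11 calls were made, and 9 of them were of the gene mutated in that line. AIPP3 fell in aipp3-1 (log2 fold change -1.80, edgeR adjusted p = 0.000138) and aipp3-2 (-3.18, 6.81e-06), with 6.07 TPM in aipp3-1, 2.4 TPM in aipp3-2 and 20.7 TPM in Col-0 on average. MOM2 fell in mom2-1 (-6.50, 0.000242) and mom2-2 (-1.999, 0.000829), PIAL2 in pial2-1 (-3.24, 0.000221) and pial1/2 (-2.86, 0.000192), and NRPE1 in nrpe1-11 (-1.85, 0.00156). PIAL1 was not called in pial1-2 (0.05 ± 0.08, edgeR adjusted p = 0.868) or pial1/2 (0.21 ± 0.10, adjusted p = 1.0), and PHD1 was not called in either frameshift line. The calls outside the mutated genes were of DRM2, the methyltransferase of the pathway. DRM2 averaged 3.41 ± 0.36 TPM in aipp3-2, 7.84 ± 0.82 TPM in aipp3-1 and 9.16 ± 0.40 TPM in Col-0 (SD, n = 3 each), and it fell in aipp3-2 against Col-0 (-1.50, edgeR adjusted p = 0.000632) and against aipp3-1 (-1.24, 0.0399).

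The ChIP lists give peak positions and the caller's fold over a Col-0 control, from flower buds rather than seedlings, and each list comes from 1 sample. The MORC6 locus in the MORC6-Myc lists is set aside, with its flanks, since the gene there is the transgene's own sequence. Over the remaining 98 pairs of a member and a list, a peak overlapped the annotated gene in 6 (6.12%), against 9.75% of pairs of any gene and list. These were 4 MORC6-Myc lists at the end of MORC7 and 2 FLAG lists at MORC5. Within 1000 bp of the gene it was 22 of 98 pairs (22.4%), against 17.8% of pairs of any gene and list. The 22 pairs were 14 for MORC5, 7 for MORC7 and 1 for MORC6. No list had a peak within 1000 bp of MORC1, MORC2, MORC3 or MORC4, and this includes both AIPP3-FLAG lists at MORC2. Of 33056 annotated genes, 7208 had a peak that near in AIPP3-FLAG replicate 1 and 4009 in replicate 2. Most genes thus had none, and whether AIPP3 acts at MORC2 was not tested.

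At MORC5 a MORC6-Myc peak stood upstream in all 10 MORC6-Myc lists, a state shared by 2.02% of annotated genes (669 of 33056) within 1000 bp. The summits lay between positions -844 and -702 from the annotated start, inside the MORC5 stretch printed above, and between genes. The fold over control was 1.86 to 2.50 in the 3 lists from pial1/2, 3.10 to 4.75 in the 3 from morc6, 1.601 and 4.75 in the 2 of the further line, and 3.69 and 4.61 in the 2 from Col-0. The peaks were 253 to 426 bp wide in pial1/2, 600 to 731 bp in morc6, 419 and 714 bp in the further line, and 701 and 744 bp in Col-0. The narrower peak of the further line thus fell inside the range of pial1/2, and its fold of 1.601 was below that range. The pial1/2 lists also held fewer peaks in all, 1151 to 1348, against 8958 and 13359 in Col-0, and reached 3.89% to 4.76% of genes within 1000 bp, against 24.5% and 39.5%. Peak calls depend on a threshold, so no test was made of these folds. The first PHD1-FLAG list had a peak at the same place (summit at -874, fold 1.82) and another within a coding exon of MORC5 (summit at 281, fold 1.98). That list held 2944 peaks in all, whereas PHD1-FLAG replicate 2 held only 27. The first AIPP3-FLAG list had peaks with summits in a coding exon (257, fold 1.89) and in an untranslated exon (3742, fold 2.52). Further AIPP3-FLAG and PHD3-FLAG summits beyond the end of MORC5 lay in a coding exon of its neighbour AT5G13140.

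At MORC6 both PIAL2-Myc lists had a peak upstream. Replicate 1 gave chr1:6593032-6594191 with its summit at -1464 and fold 2.50, and replicate 2 gave chr1:6593061-6593776 with its summit at -1479 and fold 2.61. The right edge of the replicate 2 peak was at -1107, outside the window of 1000 bp, so only replicate 1 counts among the pairs above. Both summits lie in the stretch printed for MORC6, which is 548 bp from RKF2 and 1372 bp from MORC6, so nearer to RKF2. All 10 MORC6-Myc lists had intervals over MORC6 itself, with the highest fold at 3.19 to 6.14 in pial1/2, 15.3 to 17.9 in morc6, 4.9 and 7.77 in the further line, and 11.9 and 14.9 in Col-0. In morc6, the further line and Col-0 the intervals began between positions -2547 and -1721 and thus spanned the PIAL2-Myc summits. That copy of the locus is the transgene's, and reads of the transgene and of the resident gene cannot be told apart there. Separate MORC6-Myc peaks lay past the annotated end of MORC6, with summits 444 to 564 bp beyond it. Their fold was 4.19 to 6.21 in the lists from morc6, 2.73 in replicate 2 of the further line and 2.49 in replicate 2 from Col-0. Whether the transgene's fragment reaches them was not examined. PIAL2-Myc replicate 1 also had peaks with summits 724 and 1063 bp beyond the end, at folds 1.695 and 1.73.

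At MORC7 peaks lay beyond the end of the gene in 6 of 10 MORC6-Myc lists and in PIAL2-Myc replicate 1. The MORC7 stretch printed above is 822 bp from MORC7 and 359 bp from its other neighbour, AT4G24972, so nearer to the latter. The distal summits, 863 to 1006 bp past the end of MORC7, lie between genes in that stretch. They were present in none of the 3 lists from pial1/2, which were shorter throughout, in all 3 from morc6, in 1 of 2 of the further line and in both from Col-0. Folds at the distal summit ranged between 1.82 and 3.14. Replicate 2 from Col-0 also had a peak upstream of MORC7, from -2012 to -960, with its summit at -1490 and fold 2.999.

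**Figure D5:**
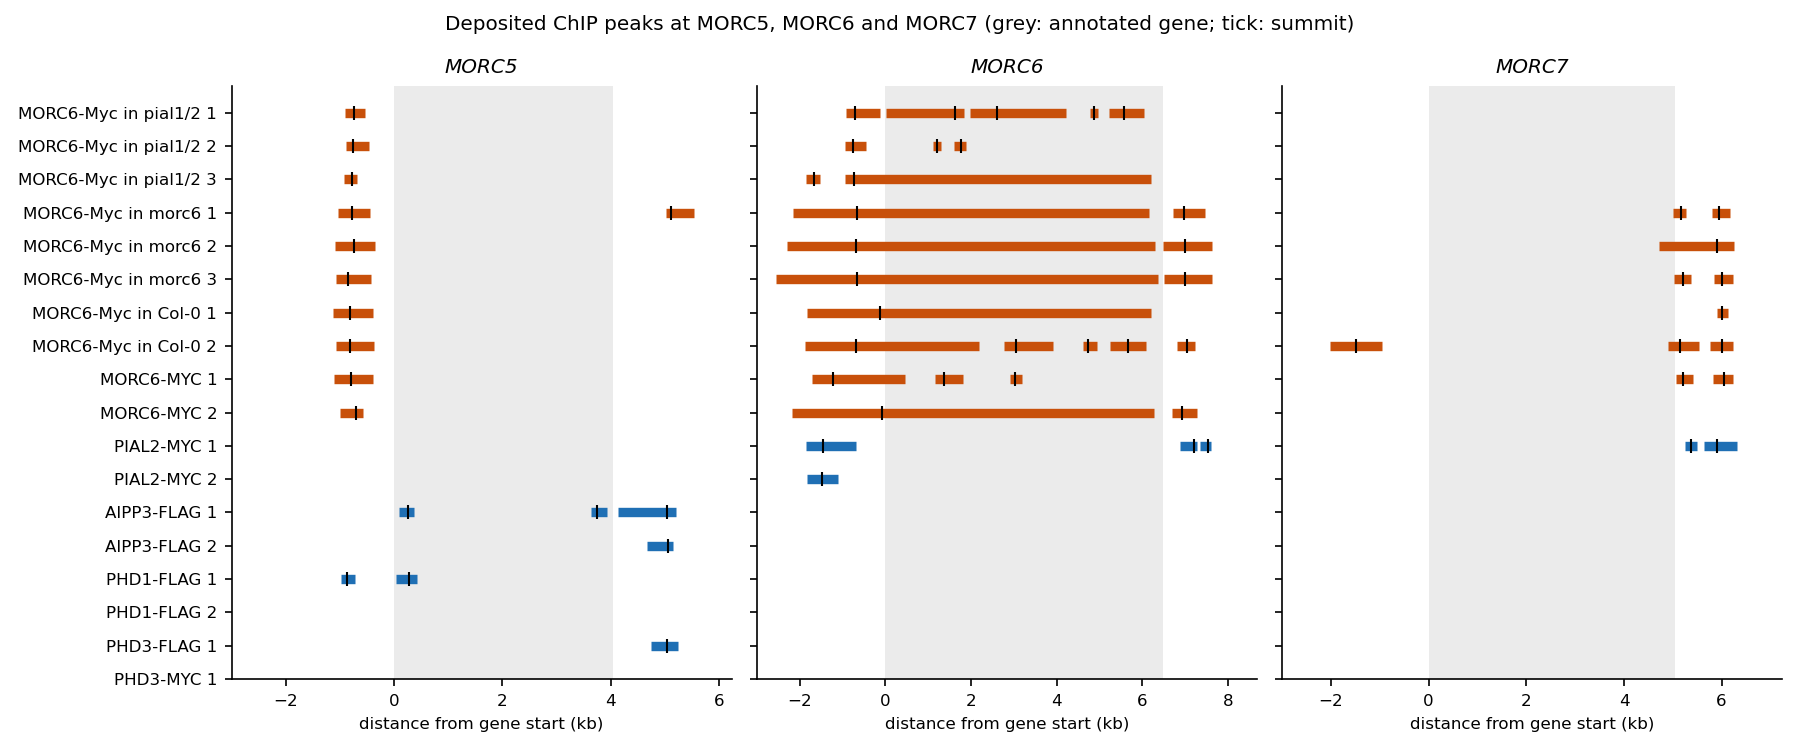
Deposited ChIP peaks (bars, 1 row per list) at MORC5, MORC6 and MORC7, by distance from the annotated gene start in kb, with the gene in grey and a tick at each summit. All 10 MORC6-Myc rows have a peak upstream of MORC5, and the pial1/2 rows have none beyond the end of MORC7.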

How the data were processed

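RNA was read from whole seedlings with a stranded mRNA kit. The authors aligned reads to TAIR10 with bowtie2 and deposited RSEM expected counts and TPM per gene. ChIP peaks were called by MACS2 (2.1.2) after bowtie2 (2.4.2) and SAMtools (1.15), and the deposited lists give a fold enrichment and −log10 q per peak. PIAL2-Myc was crosslinked with EGS before formaldehyde and the other proteins with formaldehyde alone.

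Expected counts were rounded and tested in edgeR (4.0.16, R 4.3.3; quasi-likelihood, TMM factors 0.9244 to 1.085) in 16 pairwise fits, on features with a CPM of at least 1 in at least 2 of 6 libraries, with DESeq2 (1.42.0) as an alternative. The procedure was tested on simulated data. Genes were annotated with RefSeq's TAIR10.1 table. Coding sequences were aligned with Biopython (1.88). Peaks were assigned by overlap of at least 1 bp. The text names the 6 members, MORC3, every called partner of 22 listed and the 2 genes most like each member over 10 groups. The members and lists were chosen with earlier results of these data known. Same-numbered replicates deviated together (every r above 0.1 of 3 pairs) in morchex against morc6-3 (0.408, 0.231, 0.47), mom2-1 and pial1/2 against Col-0, and within the AIPP3 and PHD1 allele pairs. ATAC-seq and other deposited files were not used.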

Additional observations from a re-analysis of the deposited data

Results flagged for a closer look

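No MORC gene was called between alleles of one gene. Groups of 3 were too small for a check on libraries far from their group, so none was made. Among the partner genes 3 differed between alleles, by edgeR's quasi-likelihood test of one allele against the other. AIPP3 was lower in aipp3-2 than in aipp3-1, at a log2 fold change of -1.374 (adjusted p = 0.0103). DRM2 was lower in aipp3-2 than in aipp3-1, at -1.237 (adjusted p = 0.0399). MOM2 was higher in mom2-2 than in mom2-1, at 4.488 (adjusted p = 0.0028), and these 2 alleles also differed in 3.13% of all features tested.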

How the results depend on the processing

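Of 26 log2 fold changes of MORC genes followed through the alternatives, 3 reversed, each of them small, not called and reversed without 1 library. MORC2 in morc6-3 ranged between -0.143 and 0.291 without each library in turn, MORC2 in aipp3-2 against aipp3-1 between -0.429 and 0.001, and MORC6 in aipp3-1 between -0.011 and 0.156. Without each library in turn the members called numbered 5 to 5 in morchex against Col-0, 1 to 1 in morc6-3, 1 to 3 in morchex against morc6-3, 0 to 2 over the 9 mutants without a MORC allele, 0 to 0 in nrpe1-11 and 0 to 0 between alleles, and the partners called numbered 9 to 11. With no minimum fold 25 partners were called in place of 11. With 1000 bp on both sides 22 member and list pairs had a ChIP peak in place of 6. At a −log10 q of at least 5 there were 4 pairs within the gene and 17 with 1000 bp on both sides. MORC2 in morchex against morc6-3 was called by DESeq2 (adjusted p = 2.46e-05), without the filter (0.0235) and in the fit over 36 libraries (1.73e-05), which was not run for nrpe1-11.

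The replicate block, which pairs libraries by number, gave 4 members in morchex against morc6-3 in place of 3, and left the counts of members in the other comparisons at 5, 1, 2, 0 and 0. With it the features called were 39 in morchex against morc6-3 (7 without), 13 in mom2-1 (7), 36 in aipp3-2 against aipp3-1 (23) and 34 in phd1-4 against phd1-2 (0). Where the numbers did not pair the libraries it gave 43 in pial1-2 (21) and 55 in nrpe1-11 (95).

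Other counts of features that moved by over 1.5 times were, with no minimum fold, 3362 in morchex (777), 2798 in morc6-3 (667), 2081 in aipp3-1 (577), 3679 in aipp3-2 (846), 3094 in mom2-2 (671), 3317 in phd1-2 (615), 3810 in phd1-4 (735), 38 in pial1-2 (21) and 2458 in mom2-2 against mom2-1 (621). By DESeq2 they were 24 in morchex against morc6-3, 11 in mom2-1, 48 in pial1-2, 68 in pial2-1 (29), 62 in aipp3-2 against aipp3-1 and 7 in phd1-4 against phd1-2. Without the filter they were 15 in morchex against morc6-3, 46 in pial1-2, 35 in aipp3-2 against aipp3-1 and 2 in phd1-4 against phd1-2. In the fit over 36 libraries they were 15, 11, 61 and 3 in these, in that order, and 53 in pial2-1. Without 1 library they were 515 in morchex (without Col-0 replicate 3), 541 in aipp3-2 (without Col-0 replicate 3) and 404 in mom2-2 against mom2-1 (without mom2-1 replicate 3). They were 34 in pial1-2 without Col-0 replicate 1 and 13 without pial1-2 replicate 2, and 9 or 10 in pial2-1 without Col-0 replicate 1, 2 or 3. In nrpe1-11 (95) they were 63 without Col-0 replicate 2, 63 without nrpe1-11 replicate 2 and 48 without nrpe1-11 replicate 3. In aipp3-2 against aipp3-1 (23) they were 6 to 10 without aipp3-1 replicate 1 or 2 or without aipp3-2 replicate 1, 2 or 3. The cause of these shifts was not tested. MORC5, at 1 to 9 fragments in the shared Col-0 libraries, was below the minimum for testing at this depth.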

Other observations

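For each member the genes whose mean level followed it most closely over 10 groups (Col-0 and the 9 mutants without a MORC allele) were sought among 18677 genes, by Pearson r of log2(CPM + 1). The points share the Col-0 set and its libraries, and r is given as a description. With 18677 genes searched over 10 points, a high r can come from the search alone. MORC2 was followed most closely by AT1G62290, annotated as an aspartyl protease with a saposin-like domain (r = 0.977), and AT1G65370, annotated as a TRAF-like protein (r = 0.972). MORC1 was followed by AT1G50000 (0.963) and AT3G16220 (0.962). MORC4 was followed less closely, by AT5G51740, annotated as a peptidase (0.916), and AT1G25055 (0.877). MORC6 was followed by RLP40 (0.96), named as a receptor like protein, and AT3G30122 (0.889). MORC7 was followed by AT5G60800 (0.937) and RS31a (0.933), a splicing factor. MORC5 was below the minimum level for this comparison.

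MORC6 and MORC7 also stood apart between both Col-0 sets, which were not tested against each other. MORC6 had 7.97, 7.58 and 7.70 TPM in the Col-0 libraries of the nrpe1-11 set and 5.93, 4.62 and 5.04 TPM in the Col-0 libraries shared by the other mutants. MORC7 had 4.68, 4.60 and 4.30 TPM in the set of nrpe1-11 and 2.68, 3.36 and 3.70 TPM in the shared set. MORC1 overlapped, at 6.48 to 7.72 TPM and 7.14 to 8.28 TPM.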
